A study of Homo sapiens with 2 samples.

Results

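The genes described here are YAP1, WWTR1, TEAD1, TEAD4, CCN1, CCN2, ANKRD1, AMOTL2, AJUBA and LATS2, 10 genes of the YAP and TEAD pathway. These genes were picked by symbol, with earlier results of these data known, and found by their Ensembl identifiers. They were among 60711 genes in the deposited table, of which 27856 carry a value and 13521 had a mean of at least 1 over both libraries. All 10 passed that filter, with between 161 and 6533 reads per gene and library. RNA-seq was carried out on A549 cells, an established human lung adenocarcinoma line, harvested 48 h after lipid transfection with an siRNA directed against MILIP or with a control siRNA. MILIP, also known as MAFG-AS1, is a long noncoding RNA, and the study examined what its silencing does to gene expression in cancer cells. The labels name no other treatment in either group, and each group is 1 library from 1 line. Because 1 siRNA against MILIP was used, loss of MILIP and any other action of that siRNA cannot be told apart.

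YAP (encoded by YAP1) and TAZ (encoded by WWTR1) are transcriptional coactivators that cannot bind DNA themselves and act through the TEAD transcription factors. The Hippo kinases end in LATS1 and LATS2, which phosphorylate YAP and TAZ and keep them out of the nucleus, so the pathway restrains growth when cells are crowded. Genes switched on by YAP and TAZ include the secreted matricellular proteins CCN1 and CCN2, as well as inhibitors of the same pathway such as AMOTL2 and LATS2.

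The deposited values are normalized read counts, and 1 read was worth 0.0501 without and 0.0503 after knockdown, so that the libraries held 20300800 and 19460956 reads in listed genes. MILIP itself (ENSG00000265688, chr17:81927829-81930753 on the + strand of GRCh38) was at 29.5 after control siRNA and at 3.22 after MILIP siRNA. All 5 epithelial markers were detected: KRT8 was at 2543 and 2875, KRT18 at 641 and 655, KRT19 at 62.1 and 122, CDH1 at 30.5 and 50.8 and EPCAM at 2.65 and 5.93 in the control and MILIP siRNA libraries. The last 3 were higher after MILIP siRNA, with log2 ratios of 0.96, 0.72 and 0.92, and their part in the results was not tested. The 3 endothelial markers and the 3 fibroblast markers that carry a value were all listed at 0 in both libraries, while DCN, PTPRC and CD3E carry no value. CD14 and CD79A, the leukocyte markers with a value, summed to 5.71 after control siRNA and to 12.4 after MILIP siRNA, and their part in the results was not tested.

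WWTR1, TEAD1, AMOTL2 and LATS2 were lower after MILIP siRNA by at least 1.5-fold, whereas TEAD4 and the target genes CCN1, CCN2 and ANKRD1 were at nearly equal values in both libraries. YAP1 and AJUBA were lower by smaller amounts. Of the 10 genes, 4 (40%) were at least 1.5-fold lower, beside 13.8% of all genes past the filter, and 0 were at least 1.5-fold higher, beside 11.1% of all genes. At 2-fold, WWTR1 and AMOTL2 were lower, beside 4.62% of all genes, and 0 were higher, beside 3.48%. Because the 10 genes were chosen with earlier results of these data known, these shares do not compare an unselected set with all genes. The median log2 ratio of the 10 genes was −0.31, and that of all genes past the filter was −0.03. Log2 ratios divide the MILIP siRNA value by the control value, each with a pseudocount of 1 added. The 95% limits that follow them are exact binomial limits of the plain ratio, and counting error is all that they cover. With 1 library per condition, the spread between cultures could not be measured, and no p-value was computed.

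**Figure D1:**
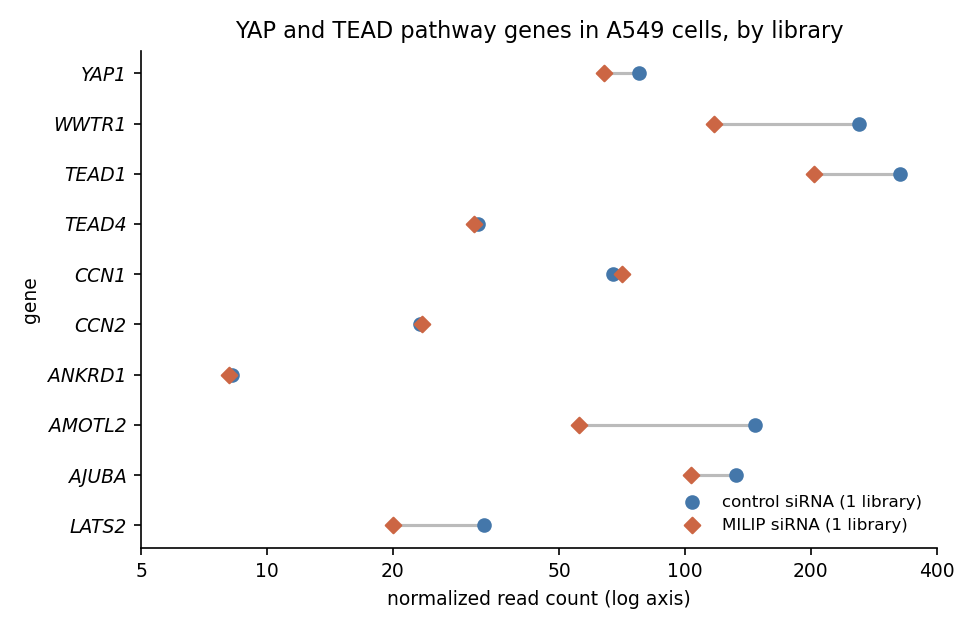
Normalized read counts (log axis) of the 10 genes in the control siRNA library (circles) and the MILIP siRNA library (diamonds), 1 library each, joined by a line. The longest lines are those of AMOTL2 (147 and 55.7) and WWTR1 (261 and 117), and the symbols of CCN2, ANKRD1 and TEAD4 nearly coincide.

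The coactivators were compared first. WWTR1 (ENSG00000018408), which encodes TAZ, lies at chr3:149517235-149736714 on the − strand (GRCh38, GENCODE release 29) and had a value of 261 after control siRNA and 117 after MILIP siRNA. These values stand for 5217 and 2329 reads and for a 2.23-fold lower level, with a log2 ratio of −1.15 (limits −1.23 to −1.09). A total of 3.17% of all genes past the filter had a lower ratio. Its paralog YAP1 (ENSG00000137693), at chr11:102110461-102233423 on the + strand, had a value of 77.6 after control siRNA and 64.0 after MILIP siRNA, from 1550 and 1272 reads. The log2 ratio of YAP1 was −0.28 (limits −0.39 to −0.17), and WWTR1 was lower by the larger amount. With the trend of all genes with GC content removed, the log2 ratio was −0.10 for YAP1 and −0.98 for WWTR1. Subtracting the log2 ratio of YAP1 from that of WWTR1 gave −0.88 (limits −1.01 to −0.75), a difference beyond counting error.

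Levels of different genes were compared as normalized read counts per kilobase of annotated exon. Exons of all annotated transcripts of a gene were merged, so the lengths of the transcripts present in these cells were not taken into account. WWTR1 was at 31.1 per kb and YAP1 at 12.3 per kb after control siRNA, and they were at 13.9 and 10.2 per kb after MILIP siRNA. WWTR1 thus made up 71.6% of the summed level of both coactivators after control siRNA and 57.8% after MILIP siRNA, while their sum was 43.4 and 24.1 per kb. By this measure WWTR1 was at the higher level in each library, but the gap was narrower after MILIP siRNA.

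The TEAD proteins are the DNA-binding partners of YAP and TAZ, and TEAD1 and TEAD4 differed from each other in the same way. TEAD1 (ENSG00000187079, chr11:12674591-12944483, + strand) was at 327 after control siRNA and at 203 after MILIP siRNA, from 6533 and 4043 reads, the most of the 10 genes. Its log2 ratio was −0.68 (limits −0.74 to −0.63), and it was −0.50, under 1.5-fold, once the GC trend had been removed. TEAD4 (ENSG00000197905, chr12:2959330-3040673, + strand) was at 31.9 and 31.2, with a log2 ratio of −0.03 (limits −0.19 to 0.13). For TEAD4 these limits hold 0 and leave room for a small difference in either direction. The log2 ratio of TEAD1 was lower than that of TEAD4 by more than counting error (difference −0.66, limits −0.83 to −0.48), but the gap was narrower with the GC trend removed, at −0.50 for TEAD1 and −0.21 for TEAD4.

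TEAD2 and TEAD3, the remaining members of the family, were at 8.61 and 2.96 per kb without knockdown and at 8.94 and 3.43 per kb after knockdown. The 4 TEAD transcripts summed to 57.4 per kb after control siRNA and 45.9 per kb after MILIP siRNA, and TEAD1, at 31.8 and 19.8 per kb, accounted for the lower sum. The share of TEAD1 in that sum was 55.4% after control siRNA and 43.1% after MILIP siRNA, and the share of TEAD4 was 24.4% and 29.9%. TEAD1 had the highest level of the family in both libraries.

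**Figure D2:**
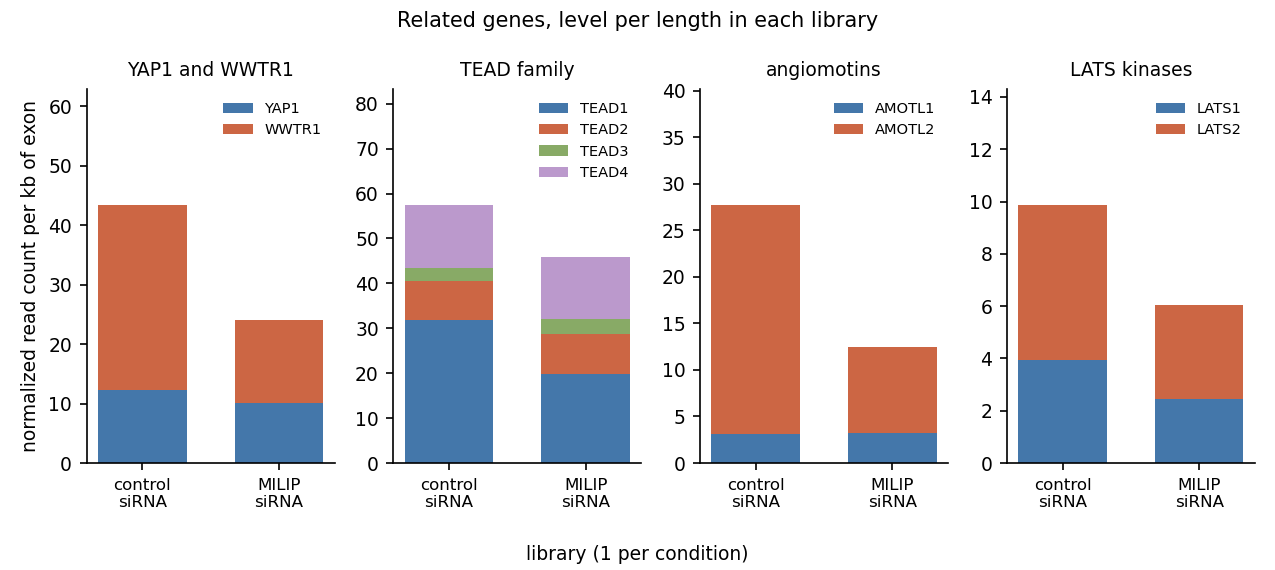
Normalized read count per kilobase of annotated exon for related genes, stacked within each bar, in the control siRNA and the MILIP siRNA library (1 library each, no error bars). The bars are lower after MILIP siRNA in all 4 panels, from 43.4 to 24.1 per kb for YAP1 and WWTR1 and from 57.4 to 45.9 per kb for the TEAD family.

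The target genes did not move as 1 group. CCN1, formerly CYR61, encodes a secreted matricellular protein that is widely used as a readout of YAP activity. CCN1 (ENSG00000142871, chr1:85580761-85583962, + strand) was at 67.1 after control siRNA and 70.5 after MILIP siRNA, from 1339 and 1402 reads. The log2 ratio of CCN1 was 0.07 (limits −0.04 to 0.18), the highest of the 10 genes. CCN2, formerly CTGF, is its relative and another common readout. CCN2 (ENSG00000118523, chr6:131948176-131951373, − strand) was at 23.2 after control siRNA and 23.5 after MILIP siRNA, with a log2 ratio of 0.02 (limits −0.17 to 0.21). ANKRD1, which encodes an ankyrin-repeat protein of muscle and stressed cells, was the least abundant of the 10 genes by reads. ANKRD1 (ENSG00000148677, chr10:90912096-90921276, − strand) was at 8.26 and 8.10, from 165 and 161 reads, with a log2 ratio of −0.03 (limits −0.35 to 0.29). The limits of all 3 hold 0 and end inside 1.5-fold in both directions, and those of ANKRD1 are the widest.

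AMOTL2 and LATS2 encode inhibitors of the pathway that are also transcribed in response to YAP and TAZ. AMOTL2, an angiomotin family protein of cell junctions that binds YAP, showed the lowest ratio of the 10 genes. AMOTL2 (ENSG00000114019, chr3:134355874-134375479, − strand) was at 147 after control siRNA and at 55.7 after MILIP siRNA, from 2938 and 1108 reads. This was a 2.64-fold lower level, with a log2 ratio of −1.39 (limits −1.50 to −1.30), and 1.95% of all genes past the filter had a lower ratio. LATS2, a kinase that inactivates YAP and TAZ, was also lower, though from fewer reads. LATS2 (ENSG00000150457, chr13:20973032-21061547, − strand) was at 33.0 and 20.1, from 659 and 399 reads, with a log2 ratio of −0.69 (limits −0.90 to −0.54). The limit nearer to 0, a log2 ratio of −0.54, is under 1.5-fold.

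AMOTL2 and LATS2 therefore stood apart from CCN1, CCN2 and ANKRD1, although all 5 are used as YAP and TAZ targets. The log2 ratio of AMOTL2 minus that of CCN1 was −1.47 (limits −1.62 to −1.32), and minus that of ANKRD1 it was −1.37 (limits −1.71 to −1.03). For LATS2 minus ANKRD1 the difference was −0.69 (limits −1.06 to −0.32). These pairs were chosen after their values had been seen, and the limits again cover counting error only.

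In each library AMOTL2 had the higher level per kb of the angiomotins that passed the filter, but its margin over AMOTL1 differed. AMOTL2 was at 24.6 per kb and AMOTL1 at 3.12 per kb after control siRNA, and they were at 9.31 and 3.19 per kb after MILIP siRNA, while AMOT was listed at 0 in both libraries. LATS1 and LATS2 were both lower after MILIP siRNA. LATS1 was at 3.95 per kb after control siRNA and 2.46 per kb after MILIP siRNA, and LATS2 was at 5.92 and 3.60 per kb. The log2 ratio of LATS1 was 0.04 above that of LATS2 (limits −0.22 to 0.29), a difference not detectable at this depth. With the GC trend removed, however, LATS1 was at −0.43, under 1.5-fold, and LATS2 at −0.72.

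AJUBA encodes a LIM-domain protein that binds LATS kinases at cell junctions and hinders their action on YAP. AJUBA (ENSG00000129474, chr14:22971174-22982642, − strand) was at 132 after control siRNA and 104 after MILIP siRNA, from 2639 and 2060 reads. Its log2 ratio was −0.35 (limits −0.44 to −0.27), under 1.5-fold, and did not differ from that of YAP1 by more than counting error (difference −0.07, limits −0.21 to 0.06). That comparison depended on the GC trend: with it removed the gap was wider, at −0.38 for AJUBA and −0.10 for YAP1.

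Counting limits below 0 were found for 6 of the 10 genes (YAP1, WWTR1, TEAD1, AMOTL2, AJUBA and LATS2), beside 36.8% of the genes above 0 in both libraries, and limits above 0 for 0 genes, beside 30.4%. The limits of the remaining 4 genes hold 0. All limits were computed without removal of the GC trend, after which the log2 ratio was −0.10 for YAP1 and −0.21 for TEAD4. At this depth counting error alone is small for most genes, so limits that leave out 0 are common.

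**Figure D3:**
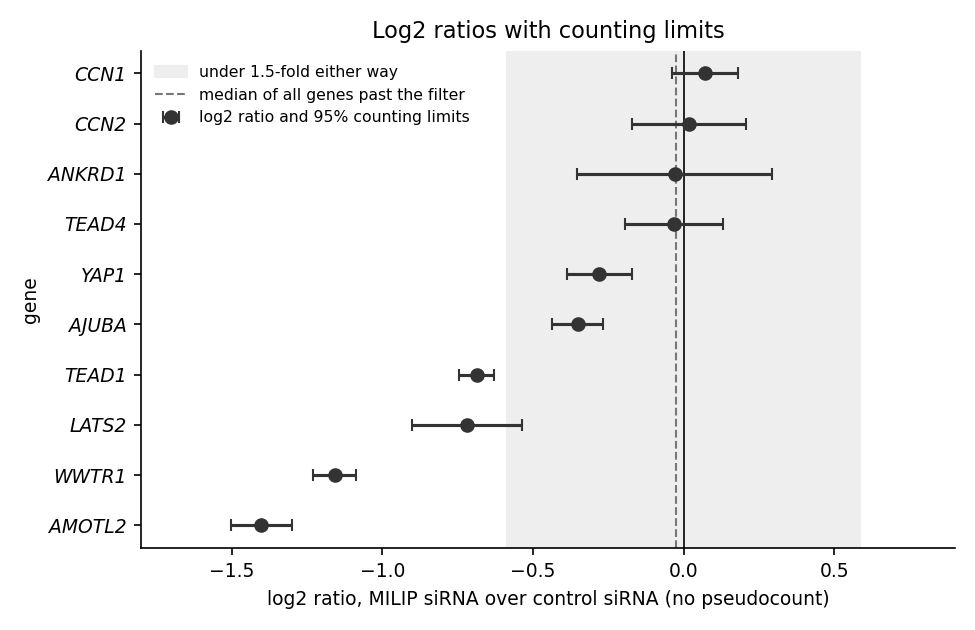
Log2 ratios after MILIP siRNA relative to control siRNA, without a pseudocount (points), with 95% counting limits (bars) for the 10 genes, in order. The grey band marks differences under 1.5-fold and the dashed line the median of all genes past the filter (−0.03). CCN1, CCN2, ANKRD1 and TEAD4 straddle 0, and TEAD1, LATS2, WWTR1 and AMOTL2 lie left of the band, with the bar of LATS2 reaching into it.

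The order of the 10 genes by level per length was not the same in both libraries. In the control library TEAD1 (31.8 per kb, limits 31.1 to 32.6) and WWTR1 (31.1 per kb, limits 30.2 to 31.9) were highest and could not be told apart by counting error. CCN1, AMOTL2, AJUBA, TEAD4, YAP1, CCN2, LATS2 and ANKRD1 followed, from 27.3 down to 4.18 per kb, each beyond the limits of the next. In the MILIP siRNA library CCN1 was at place 1 with 28.7 per kb, ahead of TEAD1 at 19.8, AJUBA at 17.3 and WWTR1 at 13.9 per kb. WWTR1 and TEAD4 overlapped in their limits there, as did YAP1 with CCN2, YAP1 with AMOTL2, CCN2 with AMOTL2, and ANKRD1 with LATS2. AMOTL2 went from place 4 to place 8, though counting error did not separate places 6 to 8.

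Because CCN2 and ANKRD1 differed from AMOTL2 in ratio, the sequence before their start sites was searched for CATTCC, the core of the TEAD motif, on both strands (GGAATG on the other strand). Windows of 250 bases before annotated RefSeq starts (GRCh38.p14) were used for the 7 of the 10 genes with a window in the sequence table used here, 10 windows in all. The sequence before CCN1, TEAD1 and TEAD4 was not analysed here. At least 1 match was found in 5 of the 10 windows, those of CCN2, ANKRD1 and YAP1 and 1 each of AMOTL2 and AJUBA, and in 11.9% of 35116 windows of all genes. Sequence further from the starts was not searched. CCN2 held 3 matches, and 0.0826% of all windows hold 3 or more. ANKRD1 held 2, and 0.940% of all windows hold 2 or more. The 249 bases directly before the exon of CCN2 (chr6:131951374-131951622, − strand) are shown because they hold the most matches, with the matches in capitals.

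CCN2 upstream: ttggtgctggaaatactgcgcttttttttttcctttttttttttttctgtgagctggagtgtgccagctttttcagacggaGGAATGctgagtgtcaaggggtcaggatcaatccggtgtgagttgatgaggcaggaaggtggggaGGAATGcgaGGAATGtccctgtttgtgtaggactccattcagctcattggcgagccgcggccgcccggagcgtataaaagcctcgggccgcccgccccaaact

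The matches of the remaining genes are shown in 30 bases each, 5′ to 3′ along the gene's strand with the match in capitals, to set those of ANKRD1 beside those of the genes that were lower. They begin 220 and 128 bases before the start in ANKRD1, 69 bases before the downstream start of AMOTL2, 162 bases before the start of YAP1 and 59 bases before the downstream start of AJUBA. In GENCODE release 29 all but the first lie inside annotated exons of the same or an overlapping gene.
ANKRD1, chr10:90921290-90921319, − strand: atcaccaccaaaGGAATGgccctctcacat
ANKRD1, chr10:90921198-90921227, − strand: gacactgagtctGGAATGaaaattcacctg
AMOTL2, chr3:134374499-134374528, − strand: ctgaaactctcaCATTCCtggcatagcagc
YAP1, chr11:102110273-102110302, + strand: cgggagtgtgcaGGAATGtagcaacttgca
AJUBA, chr14:22976884-22976913, − strand: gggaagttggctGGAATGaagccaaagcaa

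Windows of WWTR1 and LATS2 held no match, nor did the upstream windows of AMOTL2 and AJUBA. Matches thus occurred both in genes at nearly equal values (CCN2 and ANKRD1) and in genes that were lower. The latter were AMOTL2 and, lower by smaller amounts, YAP1 and AJUBA. The AP-1 motif TGANTCA, which reads the same on both strands, was found once, in ANKRD1, 195 bases before the start, and in 6.57% of all windows. The CArG box bound by SRF was found in 0 of the 10 windows and in 1.16% of all windows. A match describes the letters of the window and not a bound site.

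Other genes of the pathway were described by lists, also chosen with earlier results of these data known. YAP and TAZ target genes were taken from a list of 22 genes, 5 of which are among the 10 above, and all 22 passed the filter. In this list 6 genes (27.3%) were at least 1.5-fold lower, beside 13.8% of all genes, and 3 (13.6%) were at least 1.5-fold higher, a share near the 11.1% of all genes. The median log2 ratio was −0.30. Among the 17 genes not already described, 4 were lower and 3 were higher, and the median was −0.32. The lowest were AXL, a receptor tyrosine kinase, at 370 after control siRNA and 71.4 after MILIP siRNA (log2 ratio −2.35), DOCK5, a guanine nucleotide exchange factor for Rac, at 322 and 104 (log2 ratio −1.62), and TGFB2, a TGF-beta ligand, at 62.5 and 19.9 (log2 ratio −1.61). The highest were CCDC80, a secreted matrix protein, at 35.3 and 174 (log2 ratio 2.27), IGFBP3, which binds insulin-like growth factors, at 241 and 469 (log2 ratio 0.96), and RBMS3 at 1.40 and 3.17 (log2 ratio 0.79), the last from 28 and 63 reads. The target list therefore spanned from AXL to CCDC80, and CCN1, CCN2 and ANKRD1 lay above its median.

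Of the TEAD family and its cofactors, 8 of 10 genes passed the filter, 2 (25%) were lower (WWTR1 and TEAD1), beside 13.8% of all genes, and 1 (12.5%) was higher, beside 11.1%. The median log2 ratio was 0.01. Both lower genes are among the 10 above. Among the 4 genes that are not, 0 were lower and 1 was higher, and the median was 0.27. With the GC trend removed the counts over the 8 genes turned to 1 lower and 2 higher, beside 11.98% and 10.95% of all genes. TEAD1 was then under and VGLL3 (0.59) past 1.5-fold. The gene higher in both cases was VGLL4, which encodes a cofactor that competes with YAP for TEAD proteins, at 24.9 after control siRNA and 49.98 after MILIP siRNA (log2 ratio 0.98, limits 0.85 to 1.16). VGLL3 was at 22.4 and 28.6 (log2 ratio 0.34) and TEAD3 was at 9.02 and 10.5 (log2 ratio 0.19, limits −0.08 to 0.51).

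Among the Hippo kinases and their upstream regulators, 5 of the 20 genes that passed the filter (25%) were at least 1.5-fold lower, beside 13.8% of all genes. At least 1.5-fold higher were 0 genes, beside 11.1% of all genes, and the median log2 ratio was −0.32. Without LATS2, already described, 4 of 19 genes were lower and the median was −0.26. The counts over the 20 genes depended on the GC trend. With it removed 2 genes were lower, beside 11.98% of all genes, and 1 was higher, beside 10.95%. The list then held no larger share of lower genes than all genes did. WWC2 (−0.54), LATS1 (−0.43) and MOB1A (−0.34) were then under and MAP4K4 (0.67) past 1.5-fold. STK3, which encodes the MST2 kinase that activates LATS kinases, was lowest, at 27.3 after control siRNA and 12.9 after MILIP siRNA (log2 ratio −1.03, limits −1.30 to −0.87). LATS2 and WWC2, a scaffold of the kinases, came next, WWC2 at 69.3 and 43.4 (log2 ratio −0.66). MAP4K2, MAP4K4 and RASSF1 had the highest ratios, 0.58, 0.53 and 0.40. All 3 were under 1.5-fold with a pseudocount of 1, but MAP4K2 was 1.53-fold higher without a pseudocount, and past 1.5-fold also with a pseudocount of 0.1 or scaling by the median of ratios.

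Among YAP-binding junction proteins and LATS-binding LIM proteins the genes diverged, with 4 of 10 genes (40%) lower, beside 13.8% of all genes, 2 (20%) higher, beside 11.1%, and a median log2 ratio of −0.32. AMOTL2 and AJUBA are part of this list. Among the 8 genes that are not among the 10 above, 3 were lower and 2 were higher, and the median was −0.12. PTPN14, among these lower genes, is also in the target gene list and was counted as lower there. After AMOTL2, the lowest were PTPN14, a phosphatase that holds YAP in the cytoplasm, at 96.7 and 45.5 (log2 ratio −1.07), and TJP1, a tight junction scaffold, at 316 and 173 (log2 ratio −0.86). WTIP, a LIM protein related to AJUBA, was highest, at 39.9 after control siRNA and 137 after MILIP siRNA (log2 ratio 1.75, limits 1.66 to 1.89). TRIP6, another LIM protein, was at 43.6 and 88.6 (log2 ratio 1.01). The LIM proteins LIMD1 (log2 ratio −0.71), AJUBA (−0.35) and ZYX (−0.28) lay below 0. LIM proteins were thus on both sides of 0.

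CCN1, CCN2 and ANKRD1 also respond to SRF and its MRTF coactivators, which sense actin. Of 15 genes of that list past the filter, 2 (13.3%) were lower, a share near the 13.8% of all genes, and 1 (6.67%) was higher, beside 11.1%, with a median log2 ratio of 0.17. MRTFB was at 50.1 and 27.8 (log2 ratio −0.83), VCL (vinculin) at 556 and 313 (log2 ratio −0.83) and ITGA5 at 110 and 80.5 (log2 ratio −0.44). THBS1, a matricellular protein, was at 37.0 and 71.6 (log2 ratio 0.93), while MYL9 and ACTA2 had log2 ratios of 0.49 and 0.48 from at most 84 reads. With a pseudocount of 0.1 or none, MYL9 and ACTA2 passed 1.5-fold and 3 genes of the list were higher.

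**Figure D4:**
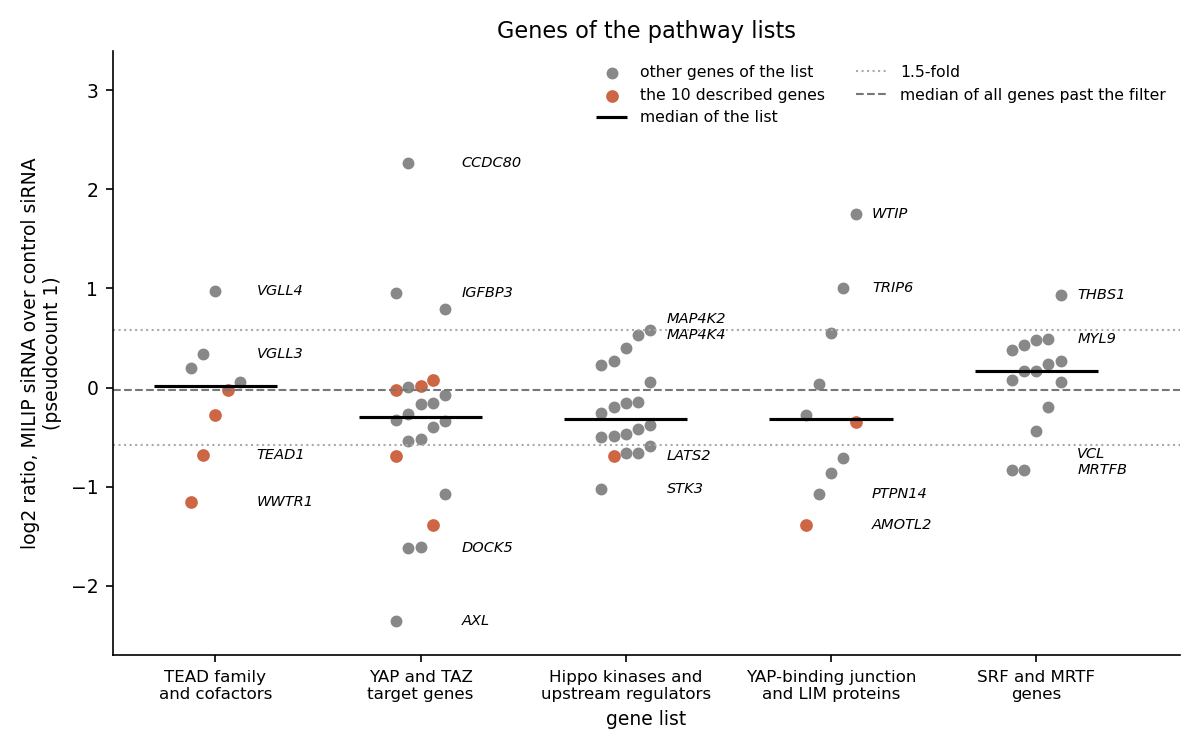
Log2 ratios (pseudocount 1) of the genes past the filter in 5 pathway lists, with the 10 described genes in orange, the median of each list as a black bar and the median of all genes (−0.03) as a dashed line. The medians of the target genes, the Hippo kinases and the junction and LIM proteins lie between −0.30 and −0.32, described genes included. The target genes reach from −2.35 (AXL) to 2.27 (CCDC80).

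Log2 ratios moved with GC content across all genes past the filter. The median was −0.24 in the bin with the lowest GC content (34.3%) and 0.25 in the bin with the highest (67.8%), measured on the longest annotated transcript of each gene. WWTR1 (40.9% GC), TEAD1 (41.3%), ANKRD1 (43.3%) and YAP1 (43.5%) lie on the side where the bin medians were between −0.17 and −0.18. With the bin median subtracted, the log2 ratio was −0.98 for WWTR1, −0.50 for TEAD1, −0.10 for YAP1 and 0.15 for ANKRD1. AMOTL2 (56.7% GC) and LATS2 (51.8%) lie where the bin medians were above 0, and their log2 ratios after subtraction were −1.45 and −0.72. AMOTL2, WWTR1 and LATS2 thus were at least 1.5-fold lower with and without the subtraction. After it, 11.98% of all genes were at least 1.5-fold lower. For CCN1, CCN2 and TEAD4 the values after subtraction were 0.12, −0.04 and −0.21, and for AJUBA −0.38.

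Exons of 5 of the 10 genes overlap exons of another annotated gene, and the use of strand in the counting is not stated. Antisense genes share 9.97% of the exon bases of YAP1, 9.45% of those of WWTR1 and 8.34% of those of CCN2. WWTR1-AS1, the antisense gene at WWTR1, was listed at 0 after control siRNA and at 1.01 after MILIP siRNA, far under WWTR1. In AMOTL2 a pseudogene, RPL39P5, covers 3.13% of the exon bases and was listed at 0 in both libraries, and in AJUBA the overlap is 0.836%. TEAD1, TEAD4, CCN1, ANKRD1 and LATS2 have no such overlap.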

How the data were processed

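The authors deposited 1 table with normalized read counts per gene, a signal on a scale close to CPM, for 1 control siRNA and 1 MILIP siRNA library. The submitters' processing notes name TopHat2 2.0.12, HTSeq 0.6.1 and hg38; normalization, annotation and strand use are not given in the sources used here. All values above 0 (100% within 0.01 of a step) are whole multiples of 1 step per library, taken as 1 read, and the smallest stand for 20 reads, so values under 1 appear as 0. The authors' fold changes, p-values, q-values and calls in the same table were not used.

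The 10 genes and all lists were chosen with earlier results of these data known. Identifiers were matched to symbols (13365 of 13521 genes past the filter). Log2 ratios used a pseudocount of 1 over genes with a mean of at least 1. Counts used 1.5-fold. Limits are exact binomial (Clopper-Pearson) or, for levels, exact Poisson, at 95%, and for differences exact conditional limits of the odds ratio; all cover counting error only. No test was possible with 1 library per condition. Exon lengths, overlaps and GC content came from GENCODE release 29 and start sites and upstream sequence from RefSeq.

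Named genes were the 10, MILIP and the 3 highest and 3 lowest of each list. TEAD2, AMOTL1, AMOT, LATS1, MOB1A, LIMD1, ZYX, WWTR1-AS1 and RPL39P5 were added after values were seen. In all, 1 gene that the rule names is not reported here. Calculations were tested on simulated data. Scripts ran in Python 3.11.15 (scipy 1.17.1, numpy 2.4.6, matplotlib 3.10.9, pandas 2.3.3).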

Additional observations from a re-analysis of the deposited data

How the results depend on the processing

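Alternatives were a pseudocount of 0.1, none at all, scaling by the median of ratios, a 2-fold threshold, a mean of at least 5, no filter and removal of the GC trend. No paired analysis was possible because there was 1 library per group, which also means that none could be left out. At 2-fold, 2 of the 10 genes were lower (WWTR1 and AMOTL2), and 471 of all genes were higher and 625 lower, by construction fewer than at 1.5-fold. With the GC trend removed, 3 of the 10 genes were lower, TEAD1 being under 1.5-fold, beside 11.98% of all genes lower and 10.95% higher. The median of the junction and LIM protein list was then −0.43, and the cause was not tested. Removal of the GC trend also changed the counts of the Hippo kinase list from 5 lower and 0 higher to 2 and 1, and of the TEAD list from 2 lower and 1 higher to 1 and 2. The Hippo kinase list had 1 gene higher, and the SRF list 3 in place of 1, with a pseudocount of 0.1 or none, and the first also under scaling by the median of ratios. Under the remaining alternatives the same 4 of the 10 genes were lower, and the counts over all genes moved by less than 1.5 times. No log2 ratio past 1.5-fold changed sign. Those of CCN2, ANKRD1 and TEAD4 took either sign, with ranges of −0.04 to 0.05, −0.03 to 0.15 and −0.21 to 0.00. Depth limits ANKRD1 most.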
